A study of Mus musculus with 2 samples.

Results

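Ichthyoses are inherited disorders of scaling skin, and 10 genes whose loss impairs the skin barrier, most of them genes of recessive ichthyosis, were followed: Elovl4, Cyp4f39, Cers3 and Pnpla1, which build acylceramides, Ugcg and Abca12, which glucosylate and load them, Alox12b, Aloxe3 and Sdr9c7, which oxidise them, and Tgm1, which cross-links the cornified envelope. They were taken by symbol, and each of the 10 symbols had 1 row among the 32285 genes of the matrices. Back skin of mice at postnatal day 3 was profiled in 2 single-cell RNA libraries. The genotype label reads Wildtype for the control library and miR-200b induced for the second, and the treatment label reads Dox (doxycycline) for both. The number of animals, the induction construct and the promoter that drives it are not given in the labels, so which cells carried the induced microRNA is not known from them. Epidermis and dermis were dissociated apart and mixed 30 to 70 before loading, so the make-up of a library was set partly by that mixing.

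The skin barrier is made in the outermost living layers of the epidermis, where keratinocytes move from the basal through the spinous to the granular layer before they cornify. There, acylceramides carrying very long omega-hydroxylated acyl chains are made, glucosylated, packed into lamellar granules and secreted, and lipoxygenase products of their linoleate tail allow ceramides to be bound to the cross-linked protein envelope. Sebaceous glands, appendages of the hair follicle, make a separate lipid secretion that also contains very long acyl chains.

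The microRNA named in the genotype is shown because its seed, the stretch near the 5′ end that pairs with target RNAs, defines what could be a direct target among the 10 genes. The mature sequences below are from RefSeq on GRCm38.p6, 5′ to 3′, with the seed (bases 2 to 8) in capitals. miR-200b-3p lies at chr4:156055685-156055706 on the minus strand, and 2 other family members share its seed.
miR-200b-3p: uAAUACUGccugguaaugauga
miR-200c-3p: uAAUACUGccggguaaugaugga
miR-429-3p: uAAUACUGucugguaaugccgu
The 7-base match to this seed was found in the 3′ untranslated region of 0 of the 10 genes, compared with 2921 of 20869 genes (14.0%) in the GENCODE vM21 annotation. The longest annotated 3′ untranslated regions of the 10 genes ran from 67 bases in Alox12b to 2440 bases in Ugcg, so the chance to hold a match differed among them. A missing match says only that these letters are absent from these regions.

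The control library held 9072 barcodes and the induced library 9114. Filters left 5178 and 5258 barcodes, and after removal of likely doublets 4816 control and 4890 induced cells remained. Their median depth was 14584.5 and 17850.5 unique molecular identifiers (UMIs, each a counted RNA molecule). The libraries shared 74 barcodes, 8 of them among kept cells. No cell annotation was used from the files, so cells were clustered without the 10 genes and without 58 other barrier lipid genes, and clusters were named from marker lists; "-like" is meant with every class name. The spinous class held 256 control and 307 induced cells, the granular class 10 and 56, the upper follicle class 424 and 143, and the sebaceous class 211 and 3. Both spinous clusters of the control library held 0 induced cells and both spinous clusters of the induced library held 0 control cells, so a cluster may be a library as much as a cell state. With 1 library per group there is no replicate error and no test: every interval below is a 95% interval for counting error only, and each ratio compares these libraries.

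The summed granular markers of the spinous and granular classes differed between the libraries, and a difference in stage cannot be told apart from a difference in the marker genes themselves. In the spinous class Krt1 stood at 26115 and 25700 CPM (UMIs scaled to equal totals) in the control and induced libraries, while the 16 granular markers summed to 891 and 3651 CPM. In the granular class those 16 markers summed to 148224 CPM in control and 40254 CPM in induced cells, with Lor at 62924 and 17325 CPM and Flg at 35491 and 5317 CPM. The sum is led by these genes, and Cdsn (1188 and 2096 CPM) and Cnfn (2339 and 2633 CPM) went the other way there, as did Flg in the spinous class (189.5 and 181.8 CPM). Of the 16, the 5 Lce1 genes stood at 727 to 2168 CPM in control granular cells but at 0.28 to 1.68 CPM in induced ones, a level like the 0 to 1.68 CPM of fibroblasts. Among the spinous markers Skint3 was at 0 and Skint6 at no more than 0.34 CPM in the spinous class. By the sum the induced spinous cells thus held more granular RNA than the control ones and the induced granular cells held less, and every ratio within these classes is read beside that.

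All 10 genes were highest, among the epidermal layers, in the granular class of both libraries. Their summed level in the control library was 30.8 CPM in the basal, 451 CPM in the spinous and 2766 CPM in the granular class. The same sums in the induced library were 49.0, 1253 and 3144 CPM. The step from basal to spinous was 14.6-fold in the control and 25.6-fold in the induced library, and the step from spinous to granular was 6.13-fold and 2.51-fold. In single cells the control spinous sum ran from 0 to 1755.5 CPM with a median of 214, and the induced one from 0 to 3860 CPM with a median of 1073. Granular cells ran from 1547 to 3538 CPM in the control and from 1799.8 to 6161 CPM in the induced library, and the granular cells of the libraries overlapped. Each molecule gives 1 read end in this 3′ assay whatever its length, and levels are compared below within a gene.

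**Figure D1:**
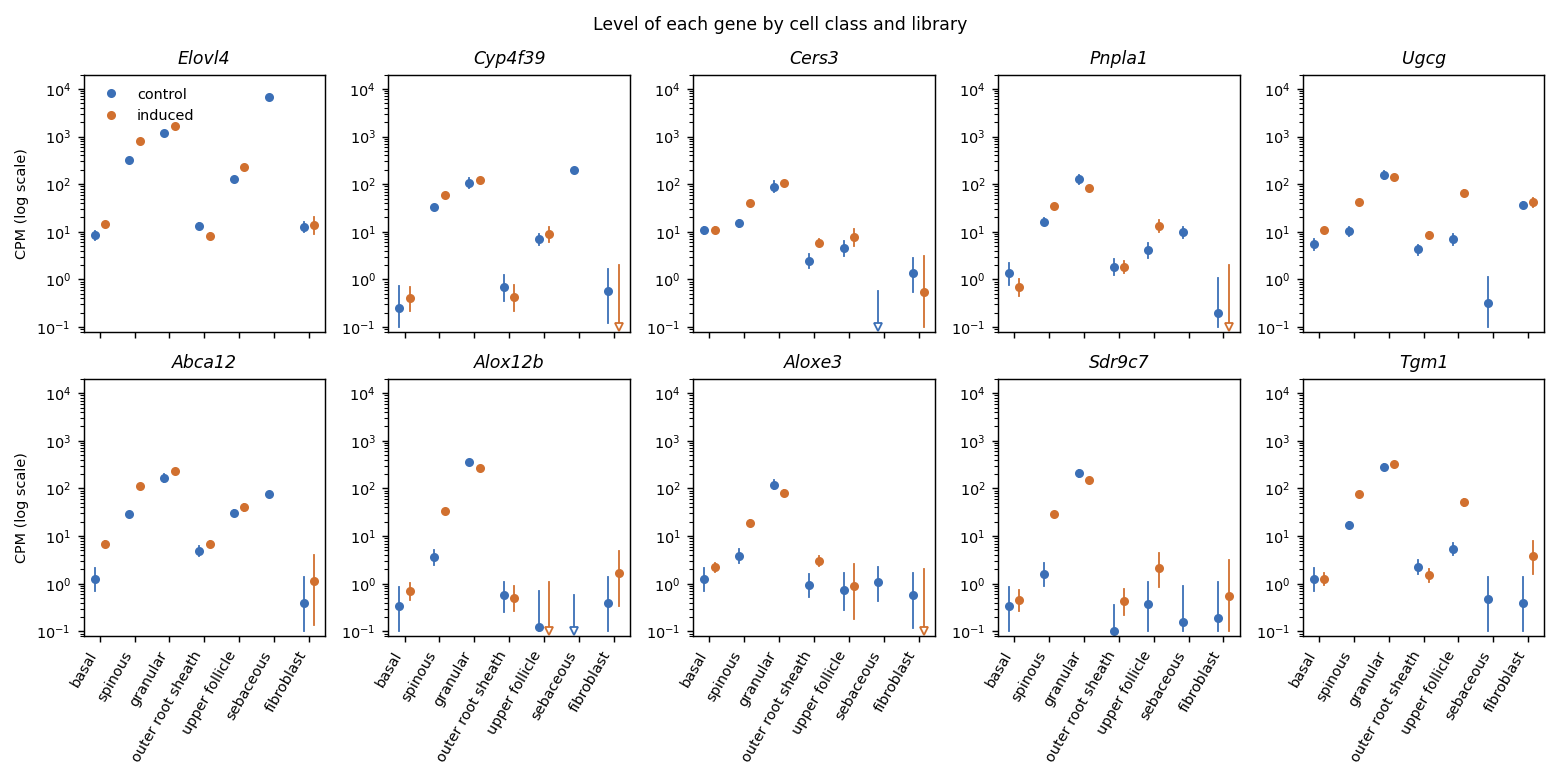
Level of each of the 10 genes in CPM on a log axis (vertical) by cell class (horizontal) in the control (blue) and induced (orange) libraries; lines are 95% counting intervals, open triangles stand for 0 UMIs, values under 0.1 are drawn at 0.1, and the induced sebaceous class (3 cells) is left out. Every gene peaks in the granular class among epidermal layers, and Elovl4 and Cyp4f39 are higher still in the control sebaceous class.

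Elovl4 (chr9:83778692-83806277, minus strand) encodes the elongase that makes the very long acyl chains of acylceramides. It stood at 8.43 CPM in basal, 321 CPM in spinous and 1158 CPM in granular control cells, and at 14.4, 801 and 1644 CPM in the induced library. The fibroblast class, which should lack it, gave 12.6 control CPM, so the basal level was not above that background. Cyp4f39 (chr17:32452723-32493320, plus strand), the mouse fatty acid omega-hydroxylase, had 3 basal control UMIs and stood at 33.2 CPM in spinous and 107 CPM in granular control cells, compared with 60.5 and 120 CPM in the induced library. Elovl4 and Cyp4f39 thus followed 1 pattern, low at the base and higher with each layer.

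Cers3 (chr7:66743504-66823691, plus strand), the ceramide synthase that joins those chains to a sphingoid base, had a basal level of its own. It was at 10.8 and 11.2 CPM in the basal class of the control and induced libraries, against 1.35 CPM in control fibroblasts, and at 15.3 and 39.7 CPM in the spinous and 88.5 and 107 CPM in the granular class. Basal cells held 20.4% of all epithelial Cers3 UMIs in the induced library, where they were 34.5% of the epithelial cells. In the control library they held 21.7% of these UMIs and were 15.04% of the epithelial cells. Pnpla1 (chr17:28858411-28890309, plus strand), which transfers linoleate onto the omega-hydroxyl group, was at 1.36 and 0.70 CPM in the basal, 16.2 and 35.5 CPM in the spinous and 127 and 83.1 CPM in the granular class. It was the member of this step with a granular level lower in the induced library, with intervals of the ratio given below.

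In the control sebaceous class Elovl4 and Cyp4f39 stood above their granular levels and the other 8 genes below theirs. Elovl4 stood at 6770 CPM (6706 to 6834) there, 5.84-fold over the control granular class, and Cyp4f39 at 202 CPM (191 to 214). Abca12 was at 77.7 CPM and Pnpla1 at 9.79 CPM. Cers3 and Alox12b had 0 UMIs in the 6335724 UMIs of these 211 cells, which allows up to 0.474 CPM, and Ugcg had 2 UMIs, Tgm1 3, Sdr9c7 1 and Aloxe3 7. The elongase and the omega-hydroxylase were thus abundant in this class, while the ceramide synthase and Alox12b were not detected at this depth and the 7 Aloxe3 UMIs, 1.10 CPM, lay near the 0.58 CPM of control fibroblasts.

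Within the gland the genes split by cluster. The cluster led by Cyp2g1, Fa2h (a fatty acid hydroxylase) and Scd1 (a desaturase) had Elovl4 at 9735 CPM and Cyp4f39 at 292 CPM in its 106 control cells. The cluster led by Mgst1, Soat1 and Prlr had 161 and 2.55 CPM in its 105 control cells. Abca12 was at 81.9 and 68.3 CPM in them, close in both, while all 62 sebaceous Pnpla1 UMIs lay in the first. These clusters were defined on other genes of the same cells, so the split is a description. The 3 induced cells in the sebaceous class had Elovl4 at 7389, 32978 and 44725 CPM, inside and above the control range of 0 to 40165 CPM.

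The 211 sebaceous cells held 82.5% of the Elovl4 UMIs of the 3955 control epithelial cells, 63.8% of the Cyp4f39 UMIs and 25.7% of the Abca12 UMIs. Over all epithelial cells Elovl4 was accordingly lower in the induced library, at 673 CPM in control and 264 CPM in induced cells (log2 ratio -1.35, -1.37 to -1.33). Without the sebaceous class it was higher, at 128 and 250 CPM (log2 ratio 0.96, 0.93 to 1.00). Cyp4f39 did the same, with a log2 ratio of -0.64 over all epithelial cells and 0.70 without the sebaceous class. The other 8 genes were higher in the induced library over all epithelial cells too, from 0.63 (Pnpla1) to 1.93 (Sdr9c7). The log2 ratio of the sum was -0.81 with and 1.02 without the sebaceous class, and Elovl4 made up 51988 of the 59604 control UMIs in that sum. For both genes the direction over the epithelium thus turned with the sebaceous class, and fewer sebaceous cells in the skin cannot be told apart from fewer in the suspension. Over all epithelial cells 2 of the 10 genes, Sdr9c7 and Tgm1, were called at least 2-fold higher and 1, Elovl4, at least 2-fold lower. A call needed 100 UMIs over both libraries, a 2-fold ratio of CPM plus 5 and intervals that did not overlap, and it was met upward by 1.82% and downward by 2.85% of all 13392 genes measured that deeply. The mix of the other classes differed as well. Granular cells made up 0.253% of the epithelial cells in the control library but 1.36% in the induced one. For the basal, spinous and granular classes together these shares were 21.8% and 43.4%. Sdr9c7, called higher over all epithelial cells, had log2 ratios of 4.16 in the spinous and -0.51 in the granular class. The part of this mix in the pooled ratios of the 10 genes was not tested.

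**Figure D2:**
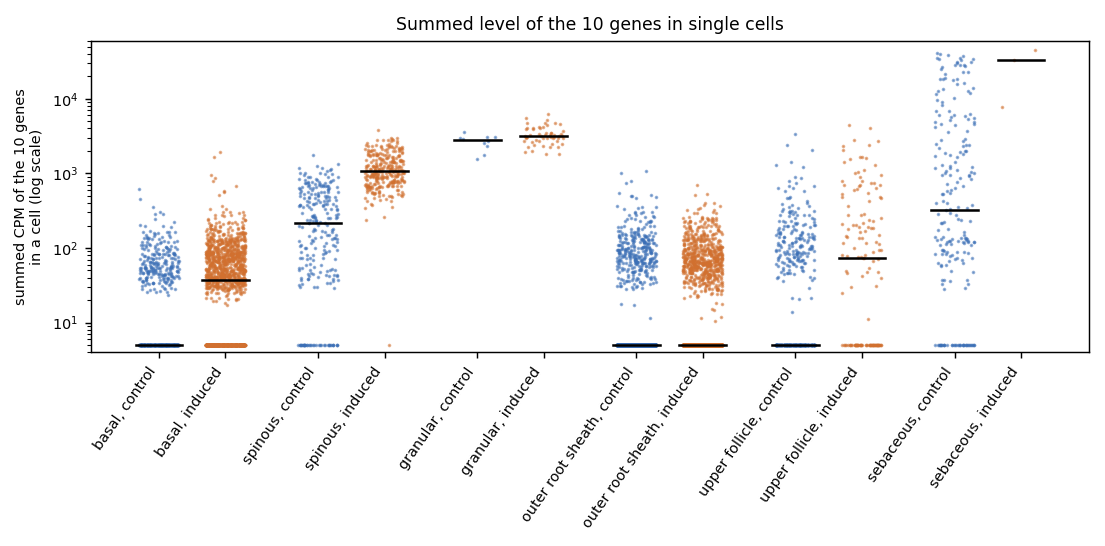
Summed CPM of the 10 genes in each cell (vertical, log scale, values under 5 drawn at 5) by class and library (horizontal); each point is a cell and black lines are medians. Control sebaceous cells spread from 0 to 41713 with a median of 318, and the induced spinous cells lie mostly above the median of the control ones.

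Ugcg (chr4:59189257-59222833, plus strand) encodes glucosylceramide synthase, a housekeeping step of sphingolipid metabolism that acylceramides also pass through. Its level was highest in the granular class, and it was also found outside the epithelium. Control levels were 5.45 CPM in basal, 10.3 CPM in spinous and 158 CPM in granular cells, but also 37.1 CPM in fibroblasts, 48.3 CPM in endothelial cells and 70.8 CPM in melanocytes. In the induced library the same classes had 10.8, 41.4, 141, 41.3, 108 and 109 CPM. Levels in basal and spinous control cells lay below those of the fibroblasts, whose median depth was 9485.5 UMIs (control) and 5938 UMIs (induced), and a low share of cells with a Ugcg UMI in those layers is not read as a difference. Over 22 sums of a class in a library its correlation with the other 9 genes ran from -0.19 (Elovl4) to 0.37 (Alox12b).

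Abca12 (chr1:71242276-71414910, minus strand), the lipid transporter that fills lamellar granules and whose loss causes harlequin ichthyosis, spanned epidermis and appendages. Its control levels were 1.28 CPM in basal, 29.0 CPM in spinous, 165 CPM in granular, 31.3 CPM in upper follicle and 77.7 CPM in sebaceous cells. The induced levels were 6.89, 115, 238 and 40.5 CPM in the first 4 of these. Fibroblasts had 2 Abca12 UMIs in either library, so free RNA was low for this gene. After thinning every cell to 2000 UMIs, 4.30% of control and 21.9% of induced spinous cells had an Abca12 UMI, against 0.191% of control fibroblasts. Unthinned, 0.379% of control and 0.704% of induced fibroblasts had one.

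The 3 lipoxygenase pathway genes were concentrated in the granular layer. Alox12b (chr11:69156989-69169792, plus strand) and Aloxe3 (chr11:69125896-69149115, plus strand), neighbours on the same strand, encode the enzymes that oxidise the linoleate of acylceramides in sequence, and Sdr9c7 (chr10:127898518-127911761, plus strand) encodes the dehydrogenase that acts on their product. Alox12b had 0.34 CPM in basal, 3.68 CPM in spinous and 351 CPM in granular control cells, and 0.70, 33.5 and 264 CPM in the induced library. Its step from spinous to granular was 95.4-fold in the control and 7.88-fold in the induced library. The 10 control granular cells held 53.8% of the epithelial Alox12b UMIs of that library, 60.5% of those of Sdr9c7 and 32.6% of those of Aloxe3, compared with 22.0% for Tgm1. In the induced library these shares were 62.1%, 48.8% and 35.4%, and Tgm1 had 39.8%.

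Aloxe3 was at 1.28, 3.91 and 121 CPM in the 3 control layers and at 2.21, 19.2 and 81.1 CPM in the induced ones. Sdr9c7 was at 0.34, 1.61 and 210 CPM in the control layers and at 0.46, 28.8 and 147 CPM in the induced ones. In the upper follicle Alox12b had 1 UMI among 424 control cells and 0 among 143 induced cells (up to 0.90 CPM). Across the 22 sums, Alox12b, Aloxe3 and Sdr9c7 were correlated at 0.95 to 0.97 (Pearson r of log2 CPM plus 5), as high as Elovl4 with Cyp4f39 (0.97). The sums needed 50 cells, so the induced granular class is among them and the control one is not, and the points share libraries, so the values carry no test.

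Tgm1 (chr14:55700009-55713926, minus strand) encodes the membrane-bound transglutaminase that cross-links the envelope. It was at 1.28 CPM in the basal class of both libraries, at 17.2 and 78.0 CPM in the spinous and at 280 and 319 CPM in the granular class of the control and induced libraries. Sebaceous cells had 3 Tgm1 UMIs, 0.47 CPM. In the control library its spinous level was thus a larger part of its granular level than for the lipoxygenases. In the induced library its step from spinous to granular was 4.08-fold, beside 7.88-fold for Alox12b and 4.23-fold for Aloxe3, whose interval overlapped that of Tgm1.

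The promoters of 2 pairs with correlations of 0.97 are shown, to set the sequence beside the shared pattern: Elovl4 with Cyp4f39, and Alox12b with Sdr9c7. Aloxe3 with Sdr9c7 also reached 0.97. Each is 250 bases before to 50 bases after the start of the gene from RefSeq on GRCm38.p6, 5′ to 3′ on the strand of the gene, with matches to the searched motifs in capitals. They lie at chr9:83806256-83806555 (minus strand), chr17:32452473-32452772 (plus strand), chr11:69156822-69157121 (plus strand) and chr10:127898285-127898584 (plus strand).
Elovl4: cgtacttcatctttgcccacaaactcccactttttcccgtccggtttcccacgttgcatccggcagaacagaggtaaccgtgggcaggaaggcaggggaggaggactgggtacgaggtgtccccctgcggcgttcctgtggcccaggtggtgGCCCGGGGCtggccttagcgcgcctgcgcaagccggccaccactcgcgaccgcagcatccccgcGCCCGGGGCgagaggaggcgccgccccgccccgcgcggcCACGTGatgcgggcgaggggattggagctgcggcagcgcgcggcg
Cyp4f39: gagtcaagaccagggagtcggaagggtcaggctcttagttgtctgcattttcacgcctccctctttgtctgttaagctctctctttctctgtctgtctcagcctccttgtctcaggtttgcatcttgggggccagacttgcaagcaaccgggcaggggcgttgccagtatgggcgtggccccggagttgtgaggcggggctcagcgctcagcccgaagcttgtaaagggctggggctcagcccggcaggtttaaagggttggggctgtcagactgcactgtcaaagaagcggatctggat
Alox12b: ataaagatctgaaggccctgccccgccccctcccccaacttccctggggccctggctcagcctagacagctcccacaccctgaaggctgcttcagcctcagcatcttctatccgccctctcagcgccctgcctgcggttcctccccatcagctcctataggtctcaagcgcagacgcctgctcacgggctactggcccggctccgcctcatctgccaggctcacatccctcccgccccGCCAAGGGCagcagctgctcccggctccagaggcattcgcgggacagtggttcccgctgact
Sdr9c7: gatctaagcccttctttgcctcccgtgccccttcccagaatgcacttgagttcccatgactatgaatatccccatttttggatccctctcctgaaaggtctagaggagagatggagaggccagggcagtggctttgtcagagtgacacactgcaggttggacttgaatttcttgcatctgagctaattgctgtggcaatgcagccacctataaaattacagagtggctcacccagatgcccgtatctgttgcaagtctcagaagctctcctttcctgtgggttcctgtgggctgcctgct
Both strands were searched for the AP-1 motif TGANTCA, the Grainyhead-like motif AACNGGTT, the E-box CACGTG and the AP-2 motif GCCNNNGGC. Promoters were found for 9 of the 10 genes, with Tgm1 having 2 entries; Aloxe3 was not matched. AP-2 matches were found in Alox12b, Elovl4 and Ugcg, compared with 16.6% of 32851 promoters. The E-box was found in Elovl4 (7.15% of promoters), and AP-1 (7.81%) and Grainyhead-like (2.09%) letters in none of the 9. The members of either pair did not share a match, and a match is a description of letters and not of a bound site.

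In the spinous class as clustered here all 10 genes were higher in the induced library, though Cyp4f39 turned to -0.20 with doublets kept and Alox12b to -0.15 at clustering resolution 1.0. Without added CPM the lipoxygenase pathway had the highest ratios: Sdr9c7 had 14 control and 426 induced UMIs (log2 ratio 4.16, 3.40 to 5.05), Alox12b 32 and 495 (3.19, 2.67 to 3.75) and Aloxe3 34 and 283 (2.29, 1.78 to 2.85). With 5 CPM added Aloxe3 was at 1.44, below Tgm1 (1.90), Abca12 (1.82) and Ugcg (1.60). Without it Tgm1 followed at 2.18 (1.93 to 2.43), Abca12 at 1.99 (1.80 to 2.19) and Ugcg with an interval of 1.68 to 2.34. Ratios of the acylceramide genes were smaller, with Cers3 at 1.38, Elovl4 at 1.32 (1.26 to 1.38), Pnpla1 at 1.13 and Cyp4f39 at 0.87 (0.67 to 1.06). The sum had a log2 ratio of 1.47 (1.42 to 1.52). Elovl4 made up 2791 of its 3926 control UMIs and 11831 of its 18506 induced UMIs, so the sum mostly follows that gene. By the call given above, 8 of the 10 were at least 2-fold higher, all but Cyp4f39 and Pnpla1, and 0 were lower, compared with 5.39% higher and 6.52% lower among 8671 genes. The median log2 ratio of CPM plus 5 was 1.52 for the 10 genes and -0.12 for all genes. Basal markers also differed within this class: all 8 were lower in induced than in control spinous cells and none was at 0, with sums of 20546 and 2217 CPM, Krt14 at 15094 and 1752 CPM and Col17a1 at 142 and 12.3 CPM in the control and induced cells, and their part in these ratios was not tested.

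That count rests on where the spinous class was cut. Under clusterings rebuilt with other settings, a comparison added after the data were seen, it was 1 of 10 with doublets kept (4.14% of all genes tested were called higher there), 0 at resolution 1.0 (2.33%), 1 at resolution 3.0 (2.78%), 2 with values centred per library (2.85%), 2 with cells classed one by one (2.76%) and 6 with the 10 genes among the clustering genes (5.16%). Sdr9c7 was called in 5 of these 6. The sum, led by Elovl4 in the main class, stayed higher in the induced library in each, with log2 ratios from 0.48 to 1.00. Clusters with 170 control and 154 induced cells raised 8 and 7 of the 11 spinous markers but took no class name. Their cells are therefore outside the main spinous class. Thinned shares showed the main class from another side: 33.6% of control and 72.5% of induced spinous cells had an Elovl4 UMI at 2000 UMIs per cell (unthinned, 75.8% and 99.7%), against 1.53% and 2.79% of fibroblasts. Tgm1 was seen in 2.73% and 14.4% and Alox12b in 0.391% and 6.21% of the thinned spinous cells, against 0.191% of control and 0.398% of induced fibroblasts for each. Thinning left out 56 control and 353 induced cells of all classes, and the median depth of spinous cells was 28517.5 and 48976 UMIs before it.

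**Figure D3:**
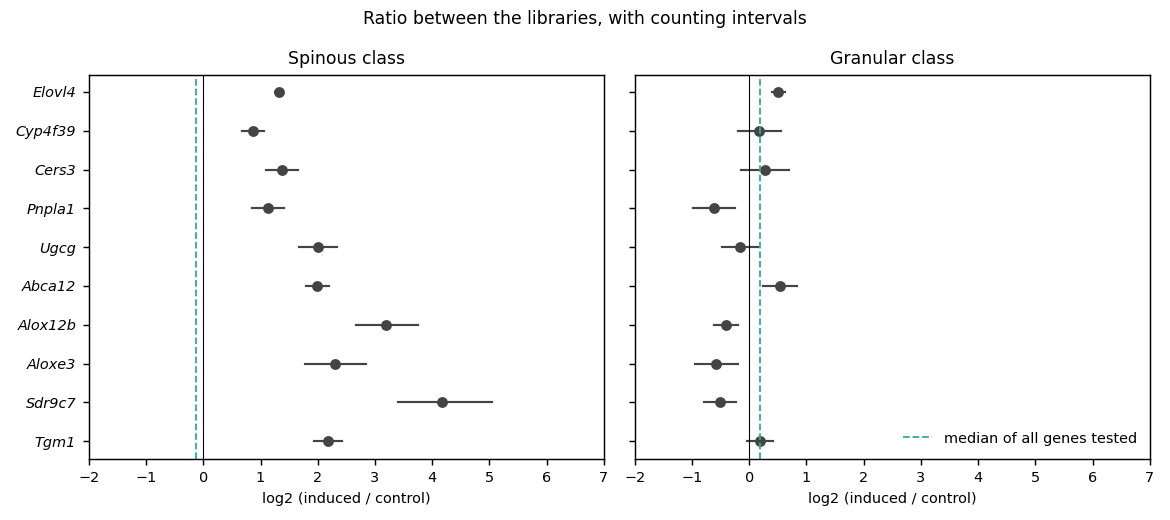
Log2 ratio of the induced over the control library (horizontal) for each of the 10 genes (vertical) in the spinous and granular classes; points are ratios of summed CPM with nothing added and lines 95% counting intervals. The dashed line is the median of all genes tested, taken with 5 CPM added, so points and line are not on the same measure. All 10 lie above 0 in the spinous class, and in the granular class they lie between -0.62 and 0.53 on either side of 0.

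In the granular class, which rests on 10 control cells, the 10 genes lay on both sides of 0. Abca12 (log2 ratio 0.53, 0.24 to 0.84) and Elovl4 (0.51, 0.39 to 0.62) were higher in the induced library. Pnpla1 (-0.62, -0.97 to -0.25), Aloxe3 (-0.58, -0.94 to -0.20), Sdr9c7 (-0.51, -0.78 to -0.22) and Alox12b (-0.41, -0.62 to -0.19) were lower. With cells classed one by one, which let sebaceous cells in, Elovl4 was at -1.31, Alox12b at 0.37, Aloxe3 at 0.16 and Sdr9c7 at 0.49, and no granular class was found with doublets kept or at resolution 1.0. Intervals for Cers3 (0.27), Tgm1 (0.19), Cyp4f39 (0.17) and Ugcg (-0.17) held 0. None of the 10 genes was called 2-fold in either direction, compared with 11.0% of 3554 genes higher and 5.74% lower. The median of all genes, of CPM plus 5, was 0.19 here, and relative to it the sum, at 0.19 (0.11 to 0.26) with nothing added, was -0.00102.

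Since the summed granular markers differed between the libraries, cells with at least 2% of their UMIs in the spinous markers, sebaceous cells left out, were compared within 5 ranges of their granular-marker share, a choice made after the data were seen. The ranges were under 0.1%, 0.1 to 0.3%, 0.3 to 1%, 1 to 3% and from 3% of UMIs. They held 216, 100, 39, 13 and 13 control cells and 178, 319, 262, 56 and 36 induced cells, so the upper 2 rest on few control cells. The ranges did not hold the same classes: in the third, 4 of 39 control and 102 of 262 induced cells were of the spinous class, and in the fourth 11 of 13 control cells had no class name, while 24 induced cells were granular and 18 spinous. The summed level was higher in the induced library in all 5 ranges, with log2 ratios of 0.46, 0.44, 0.41, 0.47 and 0.33, well under the 1.47 of the spinous class. Without the upper 2 ranges the values ran from 0.41 to 0.46. In the lowest range Elovl4 made up 1650 of the 2285 control and 1955 of the 2749 induced UMIs of the sum.

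Within the ranges the genes separated, and a ratio is counted here only where its counting interval left out 0. Elovl4 went from 270 CPM in the lowest range to 1137 CPM in the highest in control cells and from 365 to 1830 CPM in induced cells, and its ratio was counted as higher in 5 of 5 ranges (0.28 to 0.69). Abca12 was also counted as higher in 5 of 5 (0.37 to 1.06), and Cers3 and Tgm1 in 4 of 5, with all 5 of their ratios above 0. Sdr9c7 stood at 1.68 and 8.94 CPM in the second range and 11.3 and 43.3 CPM in the third, but at 206 and 170 CPM in the highest. Alox12b was at 20.5 and 44.0 CPM in the third range and at 349 and 282 CPM in the highest, where its ratio was below 0 (-0.30, -0.53 to -0.08), as was that of Aloxe3 (-0.55). Below that, Aloxe3 had ratios of 1.37, 1.12 and 0.67 in the second range and the next 2. Alox12b, Aloxe3 and Sdr9c7 were each counted as higher in 3 of 5 ranges, and the former pair as lower in 1. By the same count Cyp4f39 was lower in the induced library in 2 ranges and higher in 1, Pnpla1 lower in 1, the highest (-0.61, -0.99 to -0.23), and Ugcg higher in 1. Whatever the interval, the ratio of Cyp4f39 was below 0 in 4 ranges and that of Pnpla1 in 2, and that of Ugcg was above 0 in all 5. The highest range held no cells of the spinous class, and in the lower 3 the ratios of Pnpla1 were -0.24, 0.10 and 0.08, with intervals that held 0. The markers that define the ranges themselves differed between the libraries: in the granular class Lce1a1 was at 1941 and 1.12 CPM and Crct1 at 11179 and 1682 CPM, and the part of this in the ratios was not tested.

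**Figure D4:**
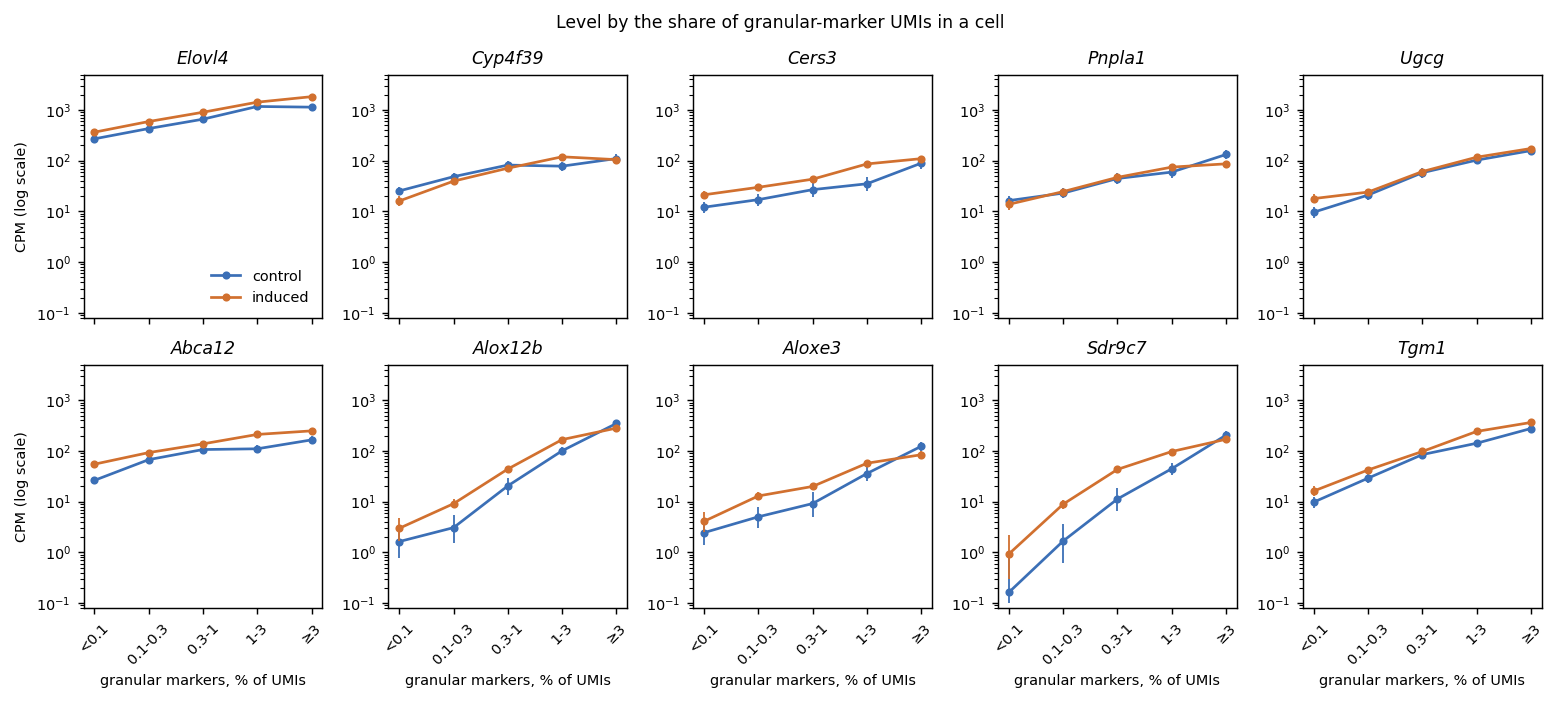
Level of each of the 10 genes in CPM (vertical, log scale) by the share of a cell's UMIs in granular markers (horizontal, 5 ranges) in the control (blue) and induced (orange) libraries, with 95% counting intervals. Elovl4 and Abca12 are higher in the induced library in all 5 ranges, as are Cers3, Tgm1 and Ugcg by their points, while in the highest range Pnpla1, Alox12b and Aloxe3 lie lower, as do Cyp4f39 and Sdr9c7 by their points.

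In the upper follicle class the summed level was 191 CPM in control and 418 CPM in induced cells, but 4 of the rebuilt clusterings turned the sign of this sum, of Elovl4 and of Abca12, so no direction is given for them. Ugcg stood at 6.94 and 66.6 CPM (log2 ratio 3.26, 2.83 to 3.72) and Tgm1 at 5.42 and 51.0 CPM (3.23, 2.74 to 3.75). Both were higher in the induced library in each rebuilt clustering that held this class, the lowest ratio being 1.39 for Ugcg and 0.94 for Tgm1. Classing cells one by one gave no upper follicle class. They were the 2 called 2-fold higher of the 4 genes with enough UMIs, compared with 4.32% of 8372 genes higher and 6.92% lower, and the median of all genes was -0.17. The cluster led by Sprr1a, Klk10 and Cst6, carried most of this: its 49 control cells had Ugcg at 13.4 CPM and Tgm1 at 8.70 CPM, and its 75 induced cells 89.7 and 67.3 CPM. Most control cells of the class (278 of 424) lay in another cluster, led by Aldh3a1 and Lpl, and granular markers summed to 599.6 and 5886 CPM over the class, whose part in the result was not tested.

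In the basal class 4 of the 10 genes had enough UMIs and 0 were called, compared with 2.34% of 10888 genes higher and 2.45% lower. Abca12 stood apart at a low level, with 15 UMIs in 595 control and 237 UMIs in 1416 induced cells (log2 ratio 2.43, 1.68 to 3.29), and 5 added CPM brought this to 0.92. In the outer root sheath class 4 genes could be tested and 0 were called, compared with 3.06% of 11322 genes higher and 2.40% lower. Its summed levels were 31.5 and 37.5 CPM, and those of the hair matrix class 38.4 and 64.1 CPM, near the basal level in both.

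Another 58 barrier lipid genes were counted by the same rule. Of 45 with enough UMIs in the spinous class, 10 were at least 2-fold higher and 3 lower in the induced library, with a median of 0.48, beside 5.39% higher, 6.52% lower and a median of -0.12 over all genes. The higher ones included Nipal4, an ichthyosis gene of the granular layer, at 19.7 and 70.3 CPM, and Ephx3, an epoxide hydrolase, at 21.2 and 111 CPM. In the granular class 7 of 36 were higher and 4 lower, beside 11.0% and 5.74% of all genes. The lowest ratios there were those of Sptssa (435 and 163 CPM), a subunit of serine palmitoyltransferase, and of the ceramidases Acer1 (126 and 47.5 CPM) and Asah1 (66.8 and 26.3 CPM). The highest were those of Tgm3 (18.6 and 97.6 CPM), a transglutaminase, Psap (26.4 and 94.0 CPM), the precursor of saposins, and Degs1 (132 and 401 CPM), a dihydroceramide desaturase. Sptssa was lower in each of the 6 comparisons, with a log2 ratio of -2.05 over all epithelial cells (437 and 106 CPM), whereas no member was called lower in any single class.

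Genes outside the lists whose pattern was most like the 10 were ranked by Pearson r over the same 22 sums among 10793 genes, as a description. Faah, fatty acid amide hydrolase, was nearest to the summed level (0.94), followed by Ly6g6c, Aspg, Fut2 and Rdh9. Ly6g6c was also nearest to Elovl4 (0.97) and Fut2, a fucosyltransferase, to Cyp4f39 (0.97). Fam3b was nearest to both Sdr9c7 (0.99) and Aloxe3 (0.97), Serpina12, a serpin of the granular layer, to Alox12b (0.98), and Stx19 to Pnpla1 (0.97). S1pr5, a receptor for sphingosine 1-phosphate, was second for both Pnpla1 and Abca12 (0.96). The nearest gene to Ugcg, Pogk, reached 0.85.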

How the data were processed

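Dorsal skin cells were profiled with a 10x Genomics 3′ kit, 1 library per group. The authors deposited raw UMI counts for each gene in each barcode. Cell Ranger 6.0.0 is named in the file headers and in the submitters' processing notes, which also name mm10. Barcodes needed at least 1000 UMIs, 500 genes and under 15% mitochondrial UMIs, and the 7% with the highest doublet scores per library were removed because the automatic threshold of the caller marked only 8 and 7 barcodes. Counts scaled to 10000 and log-transformed were clustered (2000 variable genes, 30 components, 15 neighbours, Leiden resolution 1.0, then 2.0 for epithelial cells). A cluster was epithelial above 3000 CPM of keratins and took a name from at least 3 markers, each with a UMI in 25% of its cells and a 1.5-fold excess. UMIs were summed per class and library. Levels have exact Poisson, ratios exact conditional binomial and shares Clopper-Pearson 95% intervals, which cover counting error only, and beside a count of 0 stands the level of 3 counts. The members and lists were chosen with earlier results of these data known. All 10 genes are named in every class; of the 58 others, the 3 largest rises and falls in the granular class are named, and Nipal4 and Ephx3 were added after their values were seen. Pattern neighbours were the top genes by correlation over sums of at least 50 cells. The alternatives were stricter cell filters, other clusterings, scalings, added CPM and count minimums. Calls were also run on counts simulated with Poisson error only, which leaves out variation between cells, libraries and clusterings. No conclusion is drawn from that run. Clustering used scanpy 1.11.5, leidenalg 0.10.2 and scikit-learn 1.9.0, statistics scipy 1.17.1 and numpy 2.4.6, tables pandas 2.3.3 and figures matplotlib 3.10.9, under Python 3.11.15.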

Additional observations from a re-analysis of the deposited data

Results flagged for a closer look

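Of the 10 genes, 4 had an interval above 0 in the spinous class and an interval below 0 in the granular class, a contrast that was not tested. Of 3500 genes with enough UMIs in both classes, 5.97% met the same condition. With cells classed one by one the granular ratios of Alox12b (0.37), Aloxe3 (0.16) and Sdr9c7 (0.49) turned, and at resolution 1.0 so did the spinous ratio of Alox12b (-0.15). The log2 ratio in the spinous class exceeded that in the granular class by 1.75 for Pnpla1 (1.13 and -0.62), by 3.60 for Alox12b (3.19 and -0.41), by 2.87 for Aloxe3 (2.29 and -0.58) and by 4.67 for Sdr9c7 (4.16 and -0.51). The granular class held 10 control cells, and the sum of the granular markers went the same way, from 891 to 3651 CPM in the spinous and from 148224 to 40254 CPM in the granular class, while Cdsn (1188 and 2096 CPM) and Cnfn (2339 and 2633 CPM) were higher in the induced granular class.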

How the results depend on the processing

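No paired analysis was possible because each group had 1 library. For 41 ratios of single genes by class, or of their sum outside the spinous and granular classes, 492 alternatives gave 316 values within the counting interval, 157 outside it and 19 that turned the sign of a ratio whose interval excluded 0.

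The summed log2 ratio in the spinous class (1.47) was 0.48 with doublets kept, 0.76 and 0.55 at resolutions 1.0 and 3.0, 0.96 with values centred per library, 1.00 with the genes in the clustering, 0.82 with cells classed one by one, 1.94 as a mean over cells, 1.59 relative to the median gene and 0.44 as the median over the ranges of granular-marker share. Members called higher there (8) numbered 1 with doublets kept, 0 and 1 at resolutions 1.0 and 3.0, 2 with centring, 2 one by one and 6 with the genes in the clustering, beside 2.33% to 5.16% of all genes under these settings and 5.39% as reported. Cyp4f39 was -0.20 with doublets kept and Alox12b -0.15 at resolution 1.0.

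The granular sum (0.19) was 0.10 without the top 100 genes, 0.33 as a mean over cells, -0.00102 relative to the median gene and -0.75 one by one, where sebaceous cells entered; there Elovl4 was -1.31, Alox12b 0.37, Aloxe3 0.16 and Sdr9c7 0.49. No granular class was found with doublets kept or at resolution 1.0. The control step from spinous to granular (log2 2.61) was 1.68 at resolution 3.0, 2.12 both with centring and with the genes in the clustering, 3.06 one by one and 3.05 as a mean over cells, and the induced step (1.33) was 1.49 and 1.44 under the last 2.

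In the upper follicle class, with doublets kept, at resolution 1.0, with centring and with the genes in the clustering, the sum was -0.55, -0.65, -0.49 and -0.56, Elovl4 -0.99, -1.02, -0.83 and -0.95, and Abca12 -0.56, -0.63, -0.67 and -0.72. Sdr9c7 was -0.39 with doublets kept.

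With at least 300 UMIs per gene, 352 spinous genes were lower (565 at 100 UMIs), 169 granular genes higher (390) and 94 lower (204), and with at least 30 UMIs 368 granular genes were lower. The cause of these changes was not tested. The granular class rests on 10 control cells.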

Other observations

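Cells that took no class name also carried the 10 genes. A cluster with 170 control cells, led by Defb6, Krt77 and Cst6, had a summed level of 882 CPM, with Elovl4 at 514 CPM and Tgm1 at 60.2 CPM, above the control spinous class. A cluster of 154 cells found only in the induced library, led by Krt79, Dpysl3 and Alox12e, had a summed level of 856 CPM, with Elovl4 at 555 CPM and Abca12 at 110 CPM. It raised 7 of the 11 spinous markers and stayed unnamed for the same reason. All unnamed epithelial cells together, 1286 control and 717 induced, were 32.5% of the control and 17.5% of the induced epithelial cells and held 47.6% of the control and 11.1% of the induced epithelial Tgm1 UMIs. For Elovl4 the share went the other way, from 8.10% to 20.7%, and for Cyp4f39 it was 14.9% and 15.4%. The share of each remaining gene was lower in the induced library, as for Tgm1.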
